A study of Homo sapiens with 2 samples.

Results

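The genes of the T-cell costimulatory receptors CD28, CTLA4 and ICOS lie side by side on the long arm of chromosome 2. The regions described here are the ATAC-seq peaks of 2 human T-cell acute lymphoblastic leukaemia (T-ALL) lines whose summits fall at chr2:204450000-204900000 (hg19), an interval of 450 kb around the 3 genes. Members were taken by this position alone, though with earlier results of these data known. They number 10 of the 25189 peaks listed for Jurkat and 4 of the 24603 listed for RPMI-8402 on chromosomes 1 to 22, X and Y. ATAC-seq uses the Tn5 transposase to cut and tag accessible DNA, and a peak marks a stretch where more fragments pile up than in the surrounding DNA. Both lines, Jurkat and RPMI-8402, were established from patients with T-ALL, in which immature T cells have become malignant. Both were cultured in RPMI-1640 medium with 10% tetracycline-free serum and antibiotics, and no drug, stimulus or genetic change is given in the labels. Each line is 1 library, so no difference between the lines has a replicate error and none was tested.

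CD28 delivers the classical costimulatory signal that a T cell needs beside its antigen receptor, and binds CD80 and CD86 on antigen-presenting cells. CTLA4 binds the same ligands more tightly and restrains the response, and is known to be induced by activation. ICOS binds its own ligand, ICOSLG, and supports the help that T cells give to B cells. In the RefSeq gene order, RAPH1 is the protein-coding neighbour before CD28, PARD3B is the one after ICOS, and a long non-coding RNA gene overlaps ICOS. The 3 receptor genes lie on the plus strand. On hg19, CD28 spans 204571198 to 204602557 (31.4 kb), CTLA4 204732509 to 204738683 (6.17 kb) and ICOS 204801471 to 204826298 (24.8 kb).

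The sequences before the 3 gene starts are shown because CD28, and neither of the other two genes, had a peak over its start, and only in Jurkat. They are the 250 bases before the start site in the RefSeq promoter table, 5′ to 3′ on the plus strand of GRCh38.p14, at chr2:203706389-203706638 for CD28, chr2:203867521-203867770 for CTLA4 and chr2:203936513-203936762 for ICOS. Capitals mark matches to the motif letters given in the next paragraph. The CD28 start site of that table lies 157 bases inside the GRCh38 gene record. The peaks are on hg19 and were placed only against the hg19 gene starts, so no peak is aligned to these letters.
CD28: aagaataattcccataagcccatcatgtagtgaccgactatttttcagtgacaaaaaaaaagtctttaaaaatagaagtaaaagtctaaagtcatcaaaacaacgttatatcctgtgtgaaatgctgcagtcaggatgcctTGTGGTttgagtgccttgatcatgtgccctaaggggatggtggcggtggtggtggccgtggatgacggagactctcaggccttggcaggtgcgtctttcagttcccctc
CTLA4: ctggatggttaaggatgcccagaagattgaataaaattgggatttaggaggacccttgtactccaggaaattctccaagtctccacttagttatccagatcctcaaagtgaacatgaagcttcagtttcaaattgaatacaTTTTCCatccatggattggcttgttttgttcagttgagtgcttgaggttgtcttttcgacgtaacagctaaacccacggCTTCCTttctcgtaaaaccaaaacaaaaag
ICOS: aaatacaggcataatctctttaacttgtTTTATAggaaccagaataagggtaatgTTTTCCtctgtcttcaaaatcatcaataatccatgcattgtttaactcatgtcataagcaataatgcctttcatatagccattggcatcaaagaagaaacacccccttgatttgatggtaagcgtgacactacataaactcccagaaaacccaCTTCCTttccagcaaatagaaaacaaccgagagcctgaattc

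All 3 windows were poorer in G and C than most promoters. The GC content was 45.2% for CD28, 40.4% for CTLA4 and 36.8% for ICOS, against a median of 58% over the 35116 promoters of the table. CpG dinucleotides numbered 6, 4 and 2 in the same order, against a median of 11. CD28 had the most of both among the 3 genes. Any link to the peak over its start, called in Jurkat only, was not tested. Short letters that T-cell transcription factors are known to bind, and those of the TATA box, were searched on both strands. TGTGGT (RUNX) was found 1 time in CD28, beginning 109 bases before the start site, and in neither of the others. It was present in 11% of all promoters. AGGAAG (ETS, present in 28.7%) and GGAAAA (NFAT, 21.2%), which share the letters GGAA, were each found 1 time in CTLA4 and 1 time in ICOS, all on the minus strand and without overlap. TATAAA (10.7%) had 1 match in ICOS, far from the start site at 222 bases before it and on the minus strand. The GATA letters searched, AGATAA (9.17%), and the AP-1 letters, TGACTCA (4.2%), had no match in any of the 3 windows. A match is a description of the letters, not a bound site.

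Jurkat had more called regions than RPMI-8402 along the cluster, and the surplus lay before, in and just past CD28. The lists together held 11 distinct regions. Both lines shared 3 of them, Jurkat alone had 7, and RPMI-8402 alone had 1. Of the 7 Jurkat-only regions, 4 had their summit before the CD28 start, 2 inside CD28 and 1 between CD28 and CTLA4. The region called in RPMI-8402 only lay inside CTLA4. From the ICOS start onward the lines had the same 2 regions, one inside ICOS and one past its end. No summit of either line lay in the 62.8 kb between CTLA4 and ICOS.

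**Figure D1:**
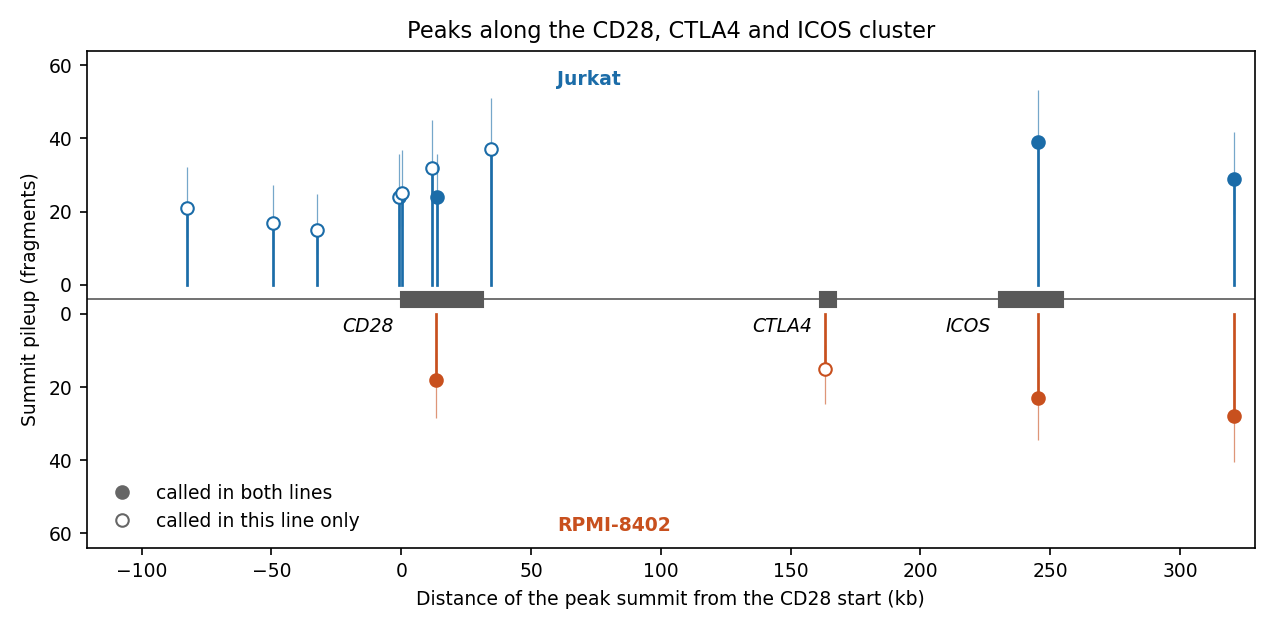
Summit pileup (fragments, vertical axis; Jurkat upward, RPMI-8402 downward) of every peak against its distance from the CD28 start (kb). Thin lines are 95% Poisson intervals of the pileup and grey boxes are the 3 genes. Open circles, called in 1 line only, crowd at and before CD28 in Jurkat, and the filled pairs inside ICOS and past it stand opposite each other.

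The peak count in Jurkat was 2.5 times that in RPMI-8402. Tiling chromosomes 1 to 22 and X into windows of the same 450 kb gave 1997 windows with at least 10 peaks in both lists together. Of these, 5.76% had at least 2 times as many Jurkat peaks and 2.45% at least 2 times as many RPMI-8402 peaks. The windows were not matched to the cluster in peak number or pileup, so these shares do not measure how rare its counts were. Within 5 Mb of the cluster, to the left and to the right, the numbers were nearly even, at 87 for Jurkat and 84 for RPMI-8402. The nearest peaks outside the interval were called in both lines. The one before it, at 204399507 to 204399987 in Jurkat, had a summit pileup of 26 fragments there and 27 in the other line. The one after it, at 204974832 to 204975483 in Jurkat, had 37 and 28. Summit pileup is the peak caller's count over the highest base of a peak, and was solved from the deposited fold and p-value. It is given in fragments, but the caller's settings are not given, so it may count single reads.

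By overlap of at least 1 bp, 3 of the 10 Jurkat peaks had a RPMI-8402 partner, a share of 30% (95% exact binomial interval 6.67 to 65.2%). Over all Jurkat peaks the share was 67.4%. Of the 4 RPMI-8402 peaks, 3 had a Jurkat partner, 75% (19.4 to 99.4%), against 68.1% over all peaks of that line. Over the whole lists, peaks of lower pileup had a partner less often. Of the cluster's peaks, 8 of 10 in Jurkat and 4 of 4 in RPMI-8402 had a pileup under their line's median. Pileups in the cluster ran from 15 to 39 in Jurkat (median 24.5) and from 15 to 28 in RPMI-8402 (median 20.5), while the medians of the whole lists were 37 and 38. Among Jurkat peaks with a pileup of 15 to 39 anywhere in the genome, 49.6% had a partner. Among RPMI-8402 peaks with a pileup of 15 to 28, 42.8% did. Both shares lie inside the cluster's wide intervals, while the 67.4% over all Jurkat peaks lies just above the Jurkat interval. The intervals treat peaks as independent, although 5 of the 10 Jurkat peaks stand within 36.5 kb.

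**Figure D2:**
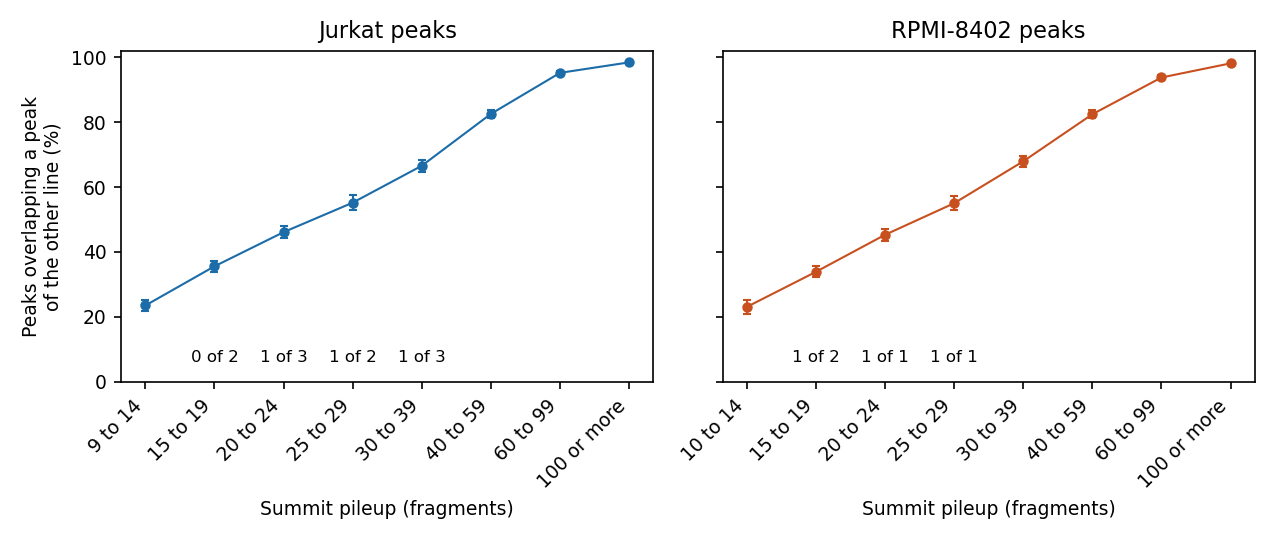
Percentage of peaks that overlap a peak of the other line (vertical axis, with 95% exact binomial intervals) by summit pileup in fragments, for all Jurkat peaks on the left and all RPMI-8402 peaks on the right. The fractions at the foot give the cluster's own peaks with a partner in each class. All 14 cluster peaks lie in the 4 classes from 15 to 39, where 35.6 to 66.6% of Jurkat peaks have a partner.

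CD28 carried the densest group of Jurkat peaks. From 204569986 to 204606488, a stretch of 36.5 kb that begins just before the gene and ends just past it, Jurkat had 5 peaks and RPMI-8402 had 1. The peak over the gene start lay at 204570971 to 204571403, and its summit was 133 bp past the start. It had a pileup of 25 fragments in Jurkat (95% Poisson interval 16.2 to 36.9), and the authors' enrichment was 4.93-fold. A second and narrower peak of 264 bp, at 204569986 to 204570249, ended 949 bp before the start and had a pileup of 24 (15.4 to 35.7). RPMI-8402 had no peak at either place, and its nearest summit lay 13.6 kb past the CD28 start.

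Inside the gene, 2 further Jurkat peaks lay close together. The first, at 204582860 to 204583136, had a pileup of 32 (21.9 to 45.2) and no partner, although a RPMI-8402 peak began 1504 bp further on. The second, at 204584729 to 204585108, was the region of CD28 that both lines had. Its pileup was 24 (15.4 to 35.7) in Jurkat and 18 (10.7 to 28.4) in RPMI-8402, where the peak spanned 204584640 to 204584979. The peaks shared 251 bp, and their summits were 212 bp apart, against a median of 67 bp over all pairs. The widest peak of the cluster in either line, 1161 bp, lay in Jurkat past the end of CD28. It spanned 204605328 to 204606488, began 2771 bp beyond the gene's last base, and had a pileup of 37 (26.1 to 51.0) and an enrichment of 7.16-fold. The nearest RPMI-8402 peak was 20349 bp away. Whether any of these peaks lies in an exon, intron or UTR was not analysed here.

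The 3 more distant peaks before CD28 had the lowest pileups of Jurkat in the cluster. They lay at 204488344 to 204488834, 204521491 to 204521813 and 204538805 to 204539076, with summits 82.7, 49.6 and 32.3 kb before the CD28 start. Their pileups were 21, 17 and 15. RPMI-8402 had no peak over the whole 184 kb from the flanking region before the interval to its peak inside CD28, and 17.4% of all distances between neighbouring RPMI-8402 peaks were at least as long.

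CTLA4 had no called region in Jurkat. The nearest Jurkat summit lay 83.9 kb past its start, inside ICOS, and the gene stood in a gap of 210 kb without a Jurkat peak, between 204606488 and 204816100. Of all distances between neighbouring Jurkat peaks, 13.6% were at least that long, so such gaps are not rare in this list. In RPMI-8402 a single peak lay inside the gene, at 204734419 to 204734736. Its summit was 2060 bp past the CTLA4 start and 4114 bp before the gene's end, so it was not a peak over the start. Its pileup of 15 (8.40 to 24.7) was the lowest of that line in the cluster, and 6.43% of all RPMI-8402 peaks had a lower one. Its width of 318 bp was close to that of the narrowest RPMI-8402 peak in the genome, 309 bp.

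ICOS was the gene with the strongest region, and both lines had it. The peak lay in the body of the gene, at 204816100 to 204816638 in Jurkat and at 204816186 to 204816595 in RPMI-8402. The summits were 14964 and 14919 bp past the ICOS start and 45 bp from each other. The pileup was 39 (27.7 to 53.3) in Jurkat and 23 (14.6 to 34.5) in RPMI-8402, and the authors' enrichments were 13.3-fold and 8.12-fold. Neither line had a peak within 5 kb of the ICOS start. Past the gene, a second shared region lay at 204891578 to 204892168 in Jurkat and at 204891568 to 204892142 in RPMI-8402, beginning 65280 bp and 65270 bp beyond the last base of ICOS. It had a pileup of 29 (19.4 to 41.6) in Jurkat and 28 (18.6 to 40.5) in RPMI-8402. These 2 regions had the 2 highest pileups of RPMI-8402 in the cluster. In Jurkat the ICOS region was the highest, followed by the wide peak past CD28 and the unpartnered peak inside CD28.

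Jurkat had the higher pileup and the higher deposited fold in all 3 shared regions, though past ICOS the pileups were 29 and 28. Relative to the median of all pairs, the regions went both ways, with wide intervals. They were then higher in Jurkat inside ICOS and CD28 and higher in RPMI-8402 past ICOS. Over all 16494 pairs of 1 Jurkat and 1 RPMI-8402 peak, log2 pileup in RPMI-8402 minus that in Jurkat had a median of -0.17, and the ratios that follow are relative to it. The Jurkat to RPMI-8402 ratio was 1.51 inside ICOS, with a 95% exact interval of 0.878 to 2.64. The ratio was 1.19 (0.617 to 2.32) inside CD28 and 0.921 (0.529 to 1.61) past ICOS. All 3 intervals hold 1, and they would also hold changes of 1.5-fold. None of the 3 pairs was at least 2-fold apart, as 14.1% of all pairs were. Divided by each line's genome-wide background instead, the ICOS pair was past 2-fold. That ratio was not taken relative to the median of all pairs, so the 14.1% is no comparison for it. The division shifts every pair alike. The median log2 ratio of the 3 pairs was -0.25, with an interval of -1.21 to 0.70 from the counts of its pair. Beside it, the 58 pairs in the 5 Mb on either side had -0.27 and chromosome 2 had -0.09. With 3 pairs, no difference or likeness to these surroundings can be read.

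**Figure D3:**
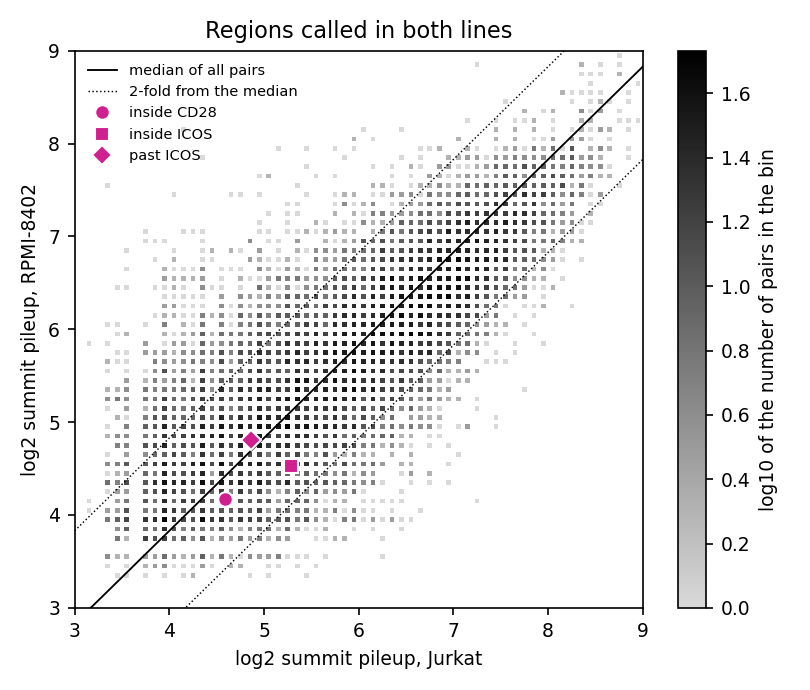
Log2 summit pileup in RPMI-8402 (vertical axis) against Jurkat (horizontal axis) for regions called in both lines, with grey bins shaded by the number of pairs. The 3 coloured pairs of the cluster lie between the dotted lines that mark 2-fold from the median of all pairs, the ICOS pair nearest to the lower one.

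The DNA around the CD28 peaks was covered more deeply than the DNA around the other peaks of the cluster. The fold and p-value of a peak also give the local background that the peak caller set it against. At the 5 Jurkat peaks from just before to just past CD28 this background was 2.53 to 3.08 times the genome-wide value of that line. At the other 5 Jurkat peaks it was 1 to 1.70 times that value. The groups do not overlap. Of all Jurkat peaks, 49.1% had a multiple of at least 2.53, so the CD28 stretch was ordinary for this line and the rest of the cluster was low. In RPMI-8402 the peak inside CD28 also had the highest multiple, 1.90, against 1 at the peaks inside CTLA4 and ICOS and 1.43 past ICOS. Each of these was below 2.17, the median of all RPMI-8402 peaks. Peaks that stand close together add to each other's background, and their part in these values was not tested.

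The fold is taken over this background, so the order of the enrichments was not that of the pileups. In Jurkat the peak inside CD28 without a partner had a pileup of 32 and an enrichment of 5.61-fold, while the region past ICOS had a pileup of 29 and an enrichment of 10.4-fold. By the authors' fold, only 3 of the 10 Jurkat peaks lay above the median of all Jurkat peaks, 7.76-fold. These were the region inside ICOS, the region past ICOS and the farthest peak before CD28, which at 7.78-fold was barely above it. Both RPMI-8402 peaks above that line's median of 7.27-fold were the regions inside and past ICOS.

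**Figure D4:**
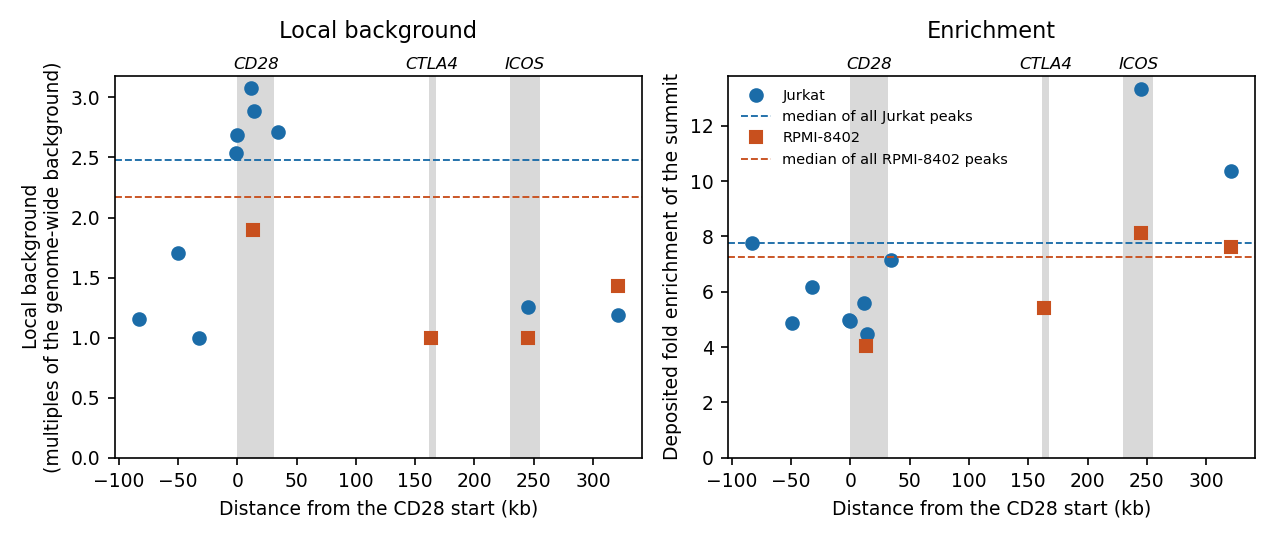
Local background in multiples of each line's genome-wide background (left) and the authors' fold enrichment (right) of every cluster peak against its distance from the CD28 start (kb). Dashed lines are the medians of all peaks of a line and grey bands the genes. Background is highest at CD28, from 2.53 to 3.08 in Jurkat, and enrichment is highest inside ICOS, 13.3-fold in Jurkat.

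A region called in 1 line can still hold fragments in the other, and the lists bound how many only under an assumed background and width. If the uncalled line had the same multiple of its genome-wide background, a RPMI-8402 summit could have held from 9 to 18 fragments at the 7 Jurkat-only regions without reaching the weakest deposited p-value. The ratios given here are those of the uncalled line to the called line, relative to the median of all pairs. At the CD28 start the limit was 17 fragments against 25 in Jurkat, a ratio of 0.765 with a 95% exact interval of 0.388 to 1.47. This is a limit under that background and not a measured RPMI-8402 value, which can be anywhere below it. Each interval here treats the limit as if it were a counted value. The regions were also picked as called in 1 line only, so the intervals do not test a difference between the lines. Of the 7 regions, the interval lay below 1 at only 1, the wide peak past CD28, where the limit was 17 against 37, a ratio of 0.517 (0.273 to 0.941). The unpartnered peak inside CD28 had a limit of 18 against 32, a ratio of 0.633 (0.334 to 1.16). With the background that RPMI-8402 had at its own peak inside CD28, the limit there was 13 and the ratio 0.457 (0.220 to 0.895). At the CTLA4 region a Jurkat summit could have held 8 fragments against 15 in RPMI-8402, a ratio of 0.474 (0.174 to 1.19). A stretch can also fail on width, and could then hold more than the limit. Of the 7 Jurkat-only peaks, 3 were narrower than the narrowest RPMI-8402 peak. Intervals cover counting error only, and copies of a fragment made by PCR would make them too narrow.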

How the data were processed

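ATAC-seq was measured in 1 library each of Jurkat and RPMI-8402. The deposited narrowPeak lists hold, per peak, the authors' coordinates, summit offset, score, fold enrichment (a ratio), and −log10 of a p-value and q-value. The submitters' processing notes name hg19, Bowtie2, Picard, SAMtools and MACS2 2.1.1.2016030, but give no settings. Read filters and library depth were not given in the sources used here. Peaks were called per library, and none were pooled.

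Computation used Python 3.11.15, numpy 2.4.6, pandas 2.3.3 and scipy 1.17.1. The pileup and background of each peak were solved from fold and p (MACS2 is known to use pileup plus 1 over background plus 1 and a Poisson upper tail); 100% of peaks gave a whole pileup within 1% of the step to the next. The lowest background, 1.59 (Jurkat) and 1.96 (RPMI-8402) fragments per base, was taken as genome-wide. The solving and overlap steps were tested on simulated data. The simulated fold and p were built with the same formula, so that test checks the code and not the formula.

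Peaks at or nearest to gene starts, the 5 strongest per line and all regions called in 1 line were to be named; in the end every peak was. The members and lists were chosen with earlier results of these data known, and the motifs, windows, backgrounds and limits of uncalled signal after the values were seen. Gene positions are those of the rule; no hg19 annotation was used, so the ligand, signalling and cell-type marker genes listed for this work were not analysed here. Alternatives are in the closing section.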

Additional observations from a re-analysis of the deposited data

How the results depend on the processing

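No paired analysis was possible because there are no replicates, and none was left out. With both lists held to a −log10 q of at least 10, the cluster kept 5 Jurkat and 2 RPMI-8402 peaks, and 40% of the former and 100% of the latter had a partner. That setting leaves fewer peaks by construction. It drops both Jurkat peaks at the CD28 start, the Jurkat peaks 49.6 and 32.3 kb before it, the shared region inside CD28 and the CTLA4 peak. Restricting the interval to the bases from the CD28 start to the ICOS end left 5 Jurkat peaks and 3 RPMI-8402 peaks. It drops the 4 Jurkat peaks before CD28, where RPMI-8402 had 0, and the shared region past ICOS, which takes 1 peak from each line. One pair was at least 2-fold apart when pileups were divided by the genome-wide background, and 0 pairs were in the other settings. That ratio was not taken relative to the median of all pairs. Widening the window at the gene starts from 1 to 5 kb raised the gene starts with a peak from 1 to 2 of the 6 (3 genes in 2 lines), by the RPMI-8402 peak inside CTLA4. Over the settings run, the share of Jurkat peaks with a partner was 30 to 40% and that of RPMI-8402 peaks 66.7 to 100%. The median log2 ratio of the pairs ran from -0.72 to -0.20 over the settings run, each on at most 3 pairs. The -0.42 of the raw pileups and the -0.72 after division by the genome-wide background were not taken relative to all pairs. The interval of the main value, -1.21 to 0.70, holds both signs, so the sign carries no result. The RPMI-8402 signal at the 7 Jurkat-only regions was not measured. Treated as a counted value, the highest pileup that would go uncalled there gave an interval that holds an equal signal at 6 of them. This used an equal multiple of background and ratios relative to the median of all pairs, and is not a test between the lines. With the background of the RPMI-8402 peak nearby, the interval at 1 of these 6, inside CD28, lay below an equal signal (0.220 to 0.895).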
